A study of Mus musculus with 42 samples.

Results

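Tumours of the vehicle arm of a BXCL701 dosing experiment were compared between day 7 and day 1, to give the course of gene expression in tumours that never received the drug. The comparison holds 6 of the 42 libraries of the series, 3 from day 7 and 3 from day 1, taken by their treatment and harvest labels. All 6 came from subcutaneous tumours of Pan02, a mouse pancreatic adenocarcinoma line, grown in the right flank of wild-type C57BL/6 mice, each from a different animal. The day 7 mice had received vehicle, PBS per the labels' protocols, once daily for 7 days, and the day 1 mice a single dose, and both groups were collected at 0 h. The sources used here do not give the age or sex of the mice. Days of tumour growth, number of vehicle doses and handling rise together between the groups, so their effects cannot be told apart. Pan02 is one transplanted cell line, and a tumour under the skin also holds host stroma, immune cells and adjoining skin, muscle and fat.

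Bulk tumour RNA mixes the transcripts of cancer cells with those of macrophages, lymphocytes, fibroblasts and vessels, and a growing graft is gradually infiltrated and remodelled by these host cells. Cytotoxic T cells and natural killer cells kill through perforin, which opens the target membrane, and granzymes, proteases that enter through it. Antigen presentation by class I and class II molecules makes tumour cells and phagocytes visible to T cells. In bulk RNA, fewer cells of a type and less RNA per cell cannot be told apart.

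No gene of 16613 tested passed an adjusted p of 0.05 between day 7 and day 1 vehicle tumours in either direction (0.0% higher, 0.0% lower; limma with Benjamini-Hochberg adjustment, smallest adjusted p = 0.263). At an unadjusted p under 0.05, 1405 genes (8.46%) were higher on day 7 and 1646 (9.91%) were lower, 3051 in all (18.4%). Genes of the mitochondrial genome stood on the higher side, and ribosomal protein genes, perforin, granzymes and antigen presentation genes on the lower side. Every direction below is therefore a description of these 6 tumours, with the limma adjusted p at 0.263 unless another value is given. Values are the deposited scaled read estimates, and differences are day 7 minus day 1 on the log2(value + 1) scale.

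One library of each group stood apart in a property that moved with many genes. A transcript-length index, the slope of a library's deviation from the mean of all libraries on log2 exon length, is positive where long transcripts are over-represented. It was 0.032, 0.333 and 0.082 in replicates 1, 2 and 3 of day 7, against 0.031, -0.368 and -0.021 in those of day 1. Replicate 2 of day 7 had the highest index of all 42 libraries and replicate 2 of day 1 the second lowest. The labels used here name no batch, date or sequencing lane. The summed value was 21406657, 20552694 and 20181892 in day 7 libraries and 21781313, 24190898 and 21552333 in day 1 libraries, within the range of 19133149 to 26633378 over the series. Pearson correlations over genes on the log2 scale were 0.929 to 0.980 in the 6 pairs from the same day and 0.892 to 0.957 in the 9 pairs from different days, so the ranges overlapped. Read depth is unknown, because the values are scaled.

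**Figure D1:**
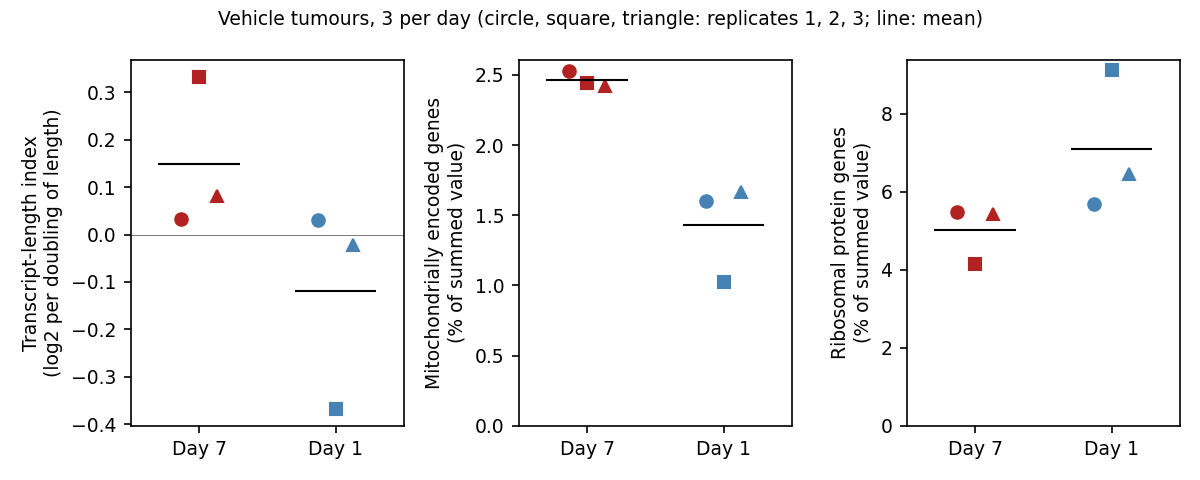
Transcript-length index, summed value of mitochondrially encoded genes and summed value of ribosomal protein genes (each as a percent of the library's summed value) in the 3 day 7 and 3 day 1 vehicle tumours, with the mean as a line. Replicate 2 of each day lies farthest out in the length index (0.333 on day 7, -0.368 on day 1), while the mitochondrial share is at least 2.42% in every day 7 tumour and at most 1.66% in every day 1 tumour.

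The count of genes at unadjusted p under 0.05 depended on these 2 libraries. Without replicate 2 of day 7 the count was 339 higher (2.04%) and 232 lower (1.4%), and without replicate 2 of day 1 it was 393 higher (2.37%) and 255 lower (1.53%). With the length index as a covariate it was 295 higher (1.78%) and 161 lower (0.969%). Without replicate 1 of day 1 it was 2318 higher and 2182 lower, and without each of the other 3 libraries 1545 to 2061 higher and 1358 to 2209 lower. In the deposited log2 FPKM table the split turned to 1959 higher and 1080 lower. The part of the length difference in the gene differences was not tested further.

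**Figure D2:**
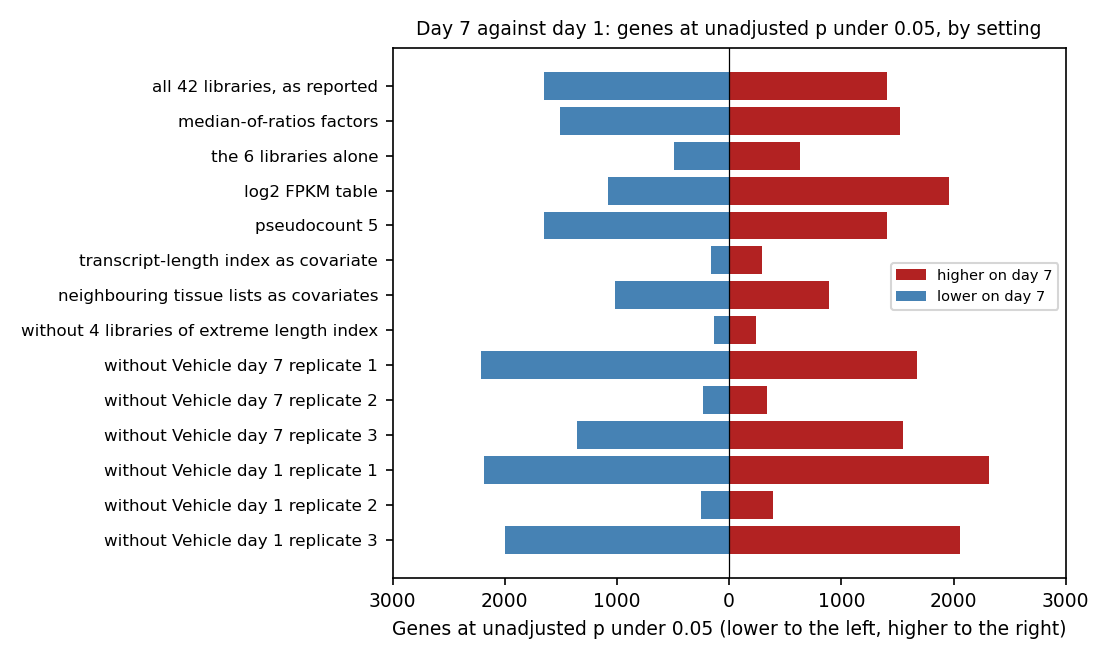
Genes at unadjusted p under 0.05 between day 7 and day 1 vehicle tumours under each setting, with genes lower on day 7 as bars to the left and genes higher on day 7 to the right. The bars for all libraries reach 1646 and 1405, and those without replicate 2 of day 7 reach 232 and 339.

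Genes that did not depend on one library were counted as those at unadjusted p under 0.05, in one direction, with all libraries and again without each of the 6 vehicle libraries in turn, 7 fits in all. There were 163 such genes higher on day 7 (0.981%) and 57 lower (0.343%). The 2 sets differed in kind. Of the 163, 86 carried names of predicted models and 43.6% were annotated as protein-coding, whereas 94.7% of the 57 were protein-coding and 4 had such names. Over all genes tested 89.6% were protein-coding. The median exon length was 6962 bases for the 1405 genes higher on day 7 and 2522 bases for the 1646 lower, against 4041 bases for all genes, in the direction of the length index. For the 163 it was 3839.5 bases, below that of all genes, and for the 57 it was 2445 bases. The 163 and all genes differ in their protein-coding share, so these medians compare unlike kinds of gene. Lengths within protein-coding genes alone were not compared. Over all genes the median difference was -0.01, with 8210 of 16613 higher on day 7.

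**Figure D3:**
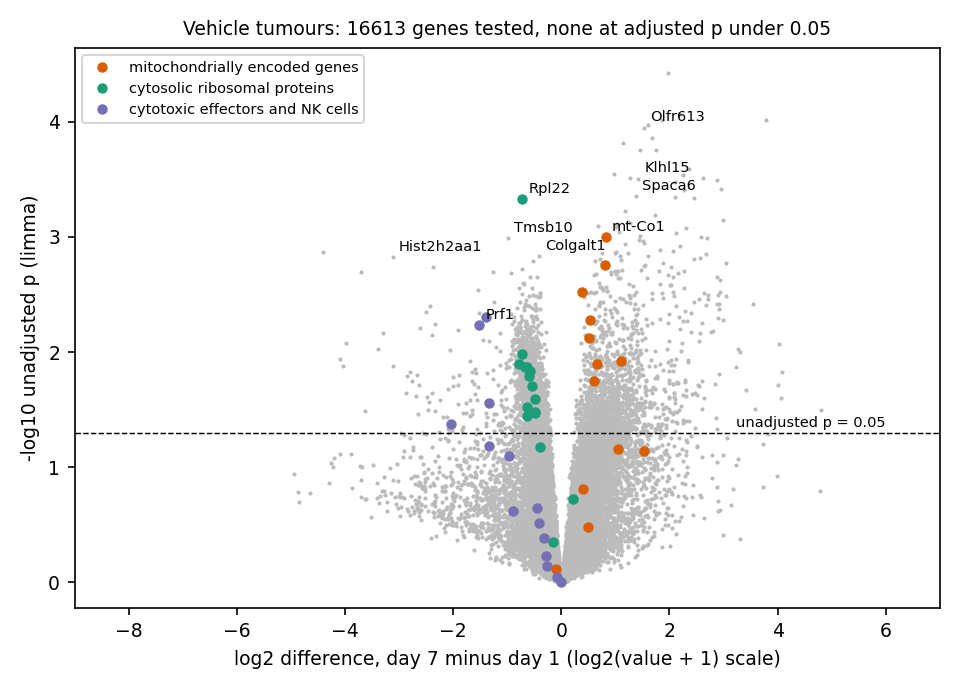
Log2 difference between day 7 and day 1 vehicle tumours (x) against the -log10 of the unadjusted limma p (y) for 16613 genes, with 3 gene lists in colour and a dashed line at the unadjusted threshold of 0.05. Of the mitochondrially encoded genes 12 of 13 lie right of 0, and of the cytosolic ribosomal proteins 15 of 16 and of the cytotoxic genes 14 of 14 lie left of it.

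The 5 smallest p-values on the higher side, leaving out predicted models, belonged to genes with little known role in this tissue. Olfr613, an olfactory receptor at chr7:103548074-103555506 (GRCm38), had values of 24.8, 38.9 and 24.5 in day 7 tumours, against 6.9, 12 and 9.57 in day 1 tumours, a difference of 1.53 (SE 0.35, 95% interval 0.82 to 2.24). Its 3 day 7 values all lay above its day 1 values, at low levels in every tumour. Klhl15 (chrX:94234599-94277724), a substrate adaptor of a cullin ubiquitin ligase, had 142, 321 and 134 on day 7 and 85.1, 47.1 and 77.4 on day 1 (difference 1.42, SE 0.35). Replicate 2 of day 7 stood far above the other 2 of its group, and the groups did not overlap. Spaca6 (chr17:17827158-17843009), needed for sperm and egg fusion, had 217, 563 and 403 on day 7 and 161, 126 and 138 on day 1 (difference 1.37, SE 0.35). Catsper2 (chr2:121392631-121413792), a subunit of the sperm calcium channel, had 32.7, 38 and 29 on day 7 and 15.7, 13.3 and 13.2 on day 1 (difference 1.18, SE 0.31). Both separated the groups. Sipa1l3 (chr7:29320372-29518641), of a family of Rap GTPase-activating proteins, had 1329, 1317 and 1447 on day 7 and 549.7, 487 and 673 on day 1 (difference 1.27, SE 0.34). Its 3 day 7 values lay close together and well above those of day 1.

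On the lower side the 5 smallest p-values belonged to genes of translation, actin binding, glycosylation and chromatin. Rpl22 (chr4:152325742-152334071), a protein of the large ribosomal subunit, had 3188, 2383 and 2710 on day 7 and 3863, 5479.6 and 4348 on day 1 (difference -0.72, SE 0.18, 95% interval -1.10 to -0.34). Tmsb10 (chr6:72957347-72958748), a thymosin that binds monomeric actin, had 12836, 8749 and 11338 on day 7 and 19426, 27373 and 18453 on day 1 (difference -0.98, SE 0.27). In both genes all day 7 tumours lay below all day 1 tumours, with replicate 2 of day 7 the lowest and replicate 2 of day 1 the highest. Colgalt1 (chr8:71610998-71624911), which adds galactose to collagen hydroxylysines, had 5063, 4694 and 5312 on day 7 and 6242, 7544 and 6407 on day 1 (difference -0.42, SE 0.12). Dolk (chr2:30284231-30286334), the dolichol kinase of protein glycosylation, had 367, 376 and 312 on day 7 and 467, 649 and 415 on day 1 (difference -0.51, SE 0.15). These differences were small and the groups did not overlap. Hist2h2aa1 (chr3:96245497-96246082), a histone H2A gene, had 1.25, 12.4 and 103 on day 7 and 76.1, 277 and 94.7 on day 1 (difference -3.12, SE 0.90). Its groups overlapped, since replicate 3 of day 7 lay among the day 1 tumours, and it has a near-identical copy between which reads could be split. All 10 genes stayed at unadjusted p under 0.05 in the 7 fits.

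The mitochondrial genome encodes 13 proteins of the respiratory chain and ATP synthase. Of these 13 genes 12 were higher on day 7, with a median difference of 0.61, and 8 had an unadjusted p under 0.05, all higher. In 10 of the 13 the groups did not overlap, where 10.3% of all genes did so on the higher side and 10.3% on the lower. The mitochondrial genes made up 2.53%, 2.44% and 2.42% of the summed value in day 7 tumours, against 1.60%, 1.02% and 1.66% in day 1 tumours. The 3 day 7 shares were nearly equal and the day 1 shares were all below them.

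mt-Co1, the catalytic core of cytochrome c oxidase, had values of 266860.4, 246194 and 229339.5 on day 7 and 166566, 99531 and 163675 on day 1, a difference of 0.82 (SE 0.23, 95% interval 0.36 to 1.29). mt-Nd4, a proton-pumping subunit of complex I, had 56718, 52489.9 and 54479 on day 7 and 35879.7, 23212 and 36577 on day 1 (difference 0.80, SE 0.23). In both, replicate 2 was the lowest day 1 tumour and the day 7 tumours lay close together. mt-Nd1, also of complex I, had 49202, 40871 and 47564 on day 7 and 35482, 33819 and 36084 on day 1 (difference 0.38, SE 0.12). mt-Nd6, the complex I subunit encoded on the other strand, had 9142, 6741 and 8867 on day 7 and 4878, 5663 and 6572 on day 1 (difference 0.53, SE 0.18). Whether counting used strand is not given in the sources used here. mt-Cytb, the complex III subunit, had 81961, 65394 and 74006 on day 7 and 53827, 45328 and 56222 on day 1 (difference 0.51, SE 0.18). These 5 genes were the members that held in all 7 fits, and none of them had overlapping groups. mt-Nd3 was the 1 member with a lower mean on day 7, by -0.09. The list's median was 0.67 without replicate 2 of day 7 and 0.54 without replicate 2 of day 1, and 0.36 with the length index as a covariate, under which 5 members kept an unadjusted p under 0.05.

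Nuclear genes of the same respiratory chain lay on the other side. Of 16 nuclear oxidative phosphorylation genes 14 were lower on day 7, with a median difference of -0.38, 8 at unadjusted p under 0.05, and none held in all 7 fits. Sdhb, the iron-sulfur subunit of succinate dehydrogenase, had 1570.3, 1191 and 1591 on day 7 and 1864, 3224 and 2117 on day 1 (difference -0.70, SE 0.25). Uqcrc1, a core subunit of complex III, had 3926, 2863 and 3911 on day 7 and 4441, 8512 and 5272 on day 1 (difference -0.73, SE 0.28). In both, replicate 2 of day 1 stood well above the other 5 tumours. The median of the 16 was -0.25 without replicate 2 of day 7 and -0.21 without replicate 2 of day 1, and in neither case did any member keep an unadjusted p under 0.05.

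Cytosolic ribosomal protein genes, short transcripts that supply the translation machinery, gave a similar picture. Of 16 listed, 15 were lower on day 7, with a median of -0.59, 13 at unadjusted p under 0.05 and 11 with groups that did not overlap. Rpl32, of the large subunit, had 10436, 7168 and 9320.1 on day 7 and 11901, 20880.5 and 12643 on day 1 (difference -0.72, SE 0.27). Rplp0, of the ribosomal stalk, had 57074, 42180.3 and 56993 on day 7 and 61285, 103728 and 71413 on day 1 (difference -0.58, SE 0.22). The high value of replicate 2 of day 1 and the low value of replicate 2 of day 7 recur in each. Over 83 ribosomal protein genes the share of the summed value was 5.48%, 4.15% and 5.42% on day 7, against 5.69%, 9.13% and 6.47% on day 1. With either of those replicates left out the median of the 16 was -0.43 (day 7) or -0.34 (day 1), with 1 member at unadjusted p under 0.05, and with the length index as a covariate it was -0.08. Rpl22 was the member that held in all 7 fits. Many of these genes have processed pseudogenes that can share their reads.

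The cytotoxic list of 14 granzymes, perforin and natural killer cell genes was lower on day 7 in 14 of 14 members. The median difference was -0.67, and the differences ran from -2.03 to -0.002. Of these, 4 had an unadjusted p under 0.05, 5 had groups that did not overlap, and Prf1 and Gzmm held in all 7 fits. Prf1 (chr10:61297833-61304680), the pore-forming perforin, had 68.5, 25.9 and 28.7 on day 7 and 122, 119.5 and 86.8 on day 1, a difference of -1.52 (SE 0.51, 95% interval -2.56 to -0.47). Gzmm (chr10:79689020-79695261), a granzyme that cleaves after methionine, had 4.09, 2.88 and 9.21 on day 7 and 10.5, 23.4 and 12.2 on day 1 (difference -1.40, SE 0.46). Each of the 3 day 7 tumours lay below each day 1 tumour in both genes. Gzma, a tryptase granzyme, had 6.45, 10.7 and 0.677 on day 7 and 24.4, 36 and 9.68 on day 1 (difference -2.03, SE 0.96, limma adjusted p = 0.269). Its groups overlapped, since replicate 2 of day 7 lay above replicate 3 of day 1. The median of the 14 was -0.62 without replicate 2 of day 7 and -0.45 without replicate 2 of day 1. A further fit left out the 4 libraries of the series with extreme length index, both replicates 2 among them. There the median was -0.59, with 3 higher, 11 lower and none at unadjusted p under 0.05.

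Neighbours of Gzmb on chromosome 14, Gzmc to Gzmg, had differences of -1.85 to -3.71 and were singled out after their values were seen. The 6 genes lie in one cluster on the minus strand, from Gzme at chr14:56117626-56120625 to Gzmb at chr14:56258838-56262260 (GRCm38). Their upstream sequences are shown because the 6 genes were all lower on average on day 7. Each line gives 120 bases upstream of the RefSeq gene start (RefSeq, GRCm38.p6, minus strand, 5′ to 3′), with the palindrome TGACGTCA, the consensus site of CREB and ATF factors, in capitals.
Gzmb: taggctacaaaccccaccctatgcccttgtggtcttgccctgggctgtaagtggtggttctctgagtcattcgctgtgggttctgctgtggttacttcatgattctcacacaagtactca
Gzmc: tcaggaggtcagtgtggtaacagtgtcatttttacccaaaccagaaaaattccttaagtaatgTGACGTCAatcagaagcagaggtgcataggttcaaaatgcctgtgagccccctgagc
Gzmd: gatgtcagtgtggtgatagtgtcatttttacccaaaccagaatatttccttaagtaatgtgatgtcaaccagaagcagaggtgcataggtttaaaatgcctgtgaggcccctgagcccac
Gzme: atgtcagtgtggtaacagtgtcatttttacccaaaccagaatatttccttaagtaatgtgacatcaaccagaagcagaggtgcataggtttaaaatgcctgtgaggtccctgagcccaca
Gzmf: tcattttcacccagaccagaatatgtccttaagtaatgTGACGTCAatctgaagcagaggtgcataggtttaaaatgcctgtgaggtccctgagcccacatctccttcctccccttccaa
Gzmg: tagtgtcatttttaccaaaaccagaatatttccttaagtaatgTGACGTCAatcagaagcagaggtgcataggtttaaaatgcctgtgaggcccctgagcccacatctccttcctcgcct
The windows are chr14:56262335-56262454 for Gzmb, chr14:56234658-56234777 for Gzmc, chr14:56132594-56132713 for Gzmd, chr14:56120626-56120745 for Gzme, chr14:56211408-56211527 for Gzmf and chr14:56159580-56159699 for Gzmg. TGACGTCA reads the same on both strands and was found once in each of Gzmc, Gzmf and Gzmg and not in the other 3 windows, and 407 of 32851 RefSeq promoter windows of the same length hold it (1.239%). The windows of Gzmc to Gzmg are alike around this site, and those of Gzmd and Gzme hold a near match there. The 3 matches are therefore not independent of each other, and no enrichment can be read from them. A match is a string of letters and not a measured binding site.

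Gzmb, the main granzyme of cytotoxic T cells, had 84.8, 28.9 and 45 in day 7 tumours, against 169, 101 and 109.8 in day 1 tumours (difference -1.34, SE 0.58). Gzmc had 166, 88.7 and 288 on day 7 and 428, 1055 and 693 on day 1 (difference -2.06, SE 0.75). Gzmf had 57.4, 3.67 and 41.5 on day 7 and 237, 472 and 228 on day 1 (difference -3.71, SE 1.10, 95% interval -5.95 to -1.46). In these 3 genes no day 7 tumour reached a day 1 tumour, and for Gzmf the closest values were 57.4 on day 7 and 228 on day 1. Gzmg had 62.7, 8.75 and 18 on day 7 and 100.4, 438 and 255 on day 1 (difference -3.30, SE 1.14). Gzmd had 101, 111 and 299 on day 7 and 587, 710.3 and 610.4 on day 1 (difference -2.07, SE 1.02, limma adjusted p = 0.272). Gzme had 45.7, 164 and 431 on day 7 and 672, 429 and 534 on day 1 (difference -1.85, SE 1.10, limma adjusted p = 0.316). Gzmg and Gzmd kept their groups apart, while the Gzme groups overlapped through replicate 3 of day 7. Gzmf and Gzmg held in all 7 fits. These genes can exchange reads: of the 50-base windows of each transcript, 21.5% of Gzmd, 19.1% of Gzme, 15.2% of Gzmg, 7.36% of Gzmf and 4.14% of Gzmc also occur in another of the 6 genes, and 0% of Gzmb do.

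T cell genes as a whole were less even. Of 18 listed, 15 were lower on day 7 and 3 higher, with a median of -0.48 and 1 at unadjusted p under 0.05. That gene was Cd8b1, the beta chain of the CD8 co-receptor, with 102, 54.1 and 51.8 on day 7 and 128, 247 and 93.3 on day 1 (difference -1.11, SE 0.53, limma adjusted p = 0.27). Cd8a, the alpha chain, had 245, 112 and 122 on day 7 and 235, 416 and 141 on day 1 (difference -0.68, SE 0.46, limma adjusted p = 0.369). In both genes replicate 1 of day 7 lay among the day 1 tumours, so the groups overlapped. Ifng, the effector cytokine of these cells, had 13.1, 7.83 and 5.79 on day 7 and 26, 38.3 and 11.8 on day 1 (difference -1.34, SE 0.70, limma adjusted p = 0.283). The T cell median rested on both replicates 2: it was -0.23 without that of day 7, -0.13 without that of day 1, and -0.04 with the length index as a covariate. B and plasma cell genes had a median of 0.29 over 13 tested and no member at unadjusted p under 0.05.

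Antigen presentation genes were on the lower side with overlapping groups. Of 8 class II genes 8 were lower on day 7, with a median of -0.95, none at unadjusted p under 0.05. H2-Ab1, a class II beta chain, had 16876, 8758 and 13974 on day 7 and 24970.1, 47343 and 14774 on day 1 (difference -1.03, SE 0.51, limma adjusted p = 0.273). Cd74, the invariant chain that guides class II molecules, had 48539.8, 19787 and 30019 on day 7 and 60228, 132304 and 33558 on day 1 (difference -1.07, SE 0.55, limma adjusted p = 0.28). In both, replicate 2 of day 1 held the highest value and replicate 2 of day 7 the lowest, and the median of the 8 was -0.66 and -0.48 with the day 7 and the day 1 one left out. With the length index as a covariate the class II median was -0.21, with 7 lower and 1 higher. Class I genes were lower in 9 of 10, median -0.58, 2 at unadjusted p under 0.05. The median was -0.39 without replicate 2 of day 7, -0.25 without replicate 2 of day 1 and -0.15 with the length index as a covariate, each with no member at unadjusted p under 0.05. Psmb10, an immunoproteasome subunit, had 2613, 1547 and 1683 on day 7 and 2762, 6783 and 2046 on day 1 (difference -0.83, SE 0.36). Of 22 interferon response genes 14 were lower and 8 higher, median -0.22, none at unadjusted p under 0.05. Isg15, a ubiquitin-like interferon product, had 586, 423 and 365 on day 7 and 807, 1103 and 426 on day 1 (difference -0.69, SE 0.38, limma adjusted p = 0.292). Cxcl9, an interferon-induced T cell attractant, had 3129, 2038 and 2499 on day 7 and 4712, 5596 and 2418 on day 1 (difference -0.67, SE 0.61, limma adjusted p = 0.497). Of 10 immune checkpoint genes 6 were lower, median -0.16, none at unadjusted p under 0.05.

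Macrophage genes lay on both sides. Of 14 listed 9 were lower and 5 higher on day 7, median -0.17, with 4 lower and 2 higher at unadjusted p under 0.05. The lower ones were complement C1q chains and Trem2, a lipid receptor of tumour macrophages. C1qa had 9058, 7125 and 10578 on day 7 and 13213, 27337 and 11044 on day 1 (difference -0.85, SE 0.34). C1qc had 7287, 5882 and 8405 on day 7 and 10599, 16640 and 8553 on day 1 (difference -0.69, SE 0.28). Trem2 had 964, 908 and 1150.3 on day 7 and 1439, 2419.6 and 1278 on day 1 (difference -0.71, SE 0.29). These groups did not overlap, but replicate 2 of day 1 stood above its 2 companions. The higher ones were the scavenger receptor genes Cd163 and Mrc1. Cd163, the haemoglobin scavenger receptor, had 195, 364 and 396 on day 7 and 64.1, 69.2 and 83.6 on day 1 (difference 2.07, SE 0.83, 95% interval 0.36 to 3.77). Mrc1, the mannose receptor, had 1445, 2880.2 and 2379 on day 7 and 1282, 734 and 1467 on day 1 (difference 0.95, SE 0.44, limma adjusted p = 0.268). Cd163 separated the groups and Mrc1 did not. Adgre1, which encodes the general macrophage marker F4/80, had 1960.3, 2531 and 2693 on day 7 and 3147, 2105 and 2153 on day 1 (difference -0.03, SE 0.19, limma adjusted p = 0.931). No macrophage gene held in all 7 fits, and with the length index as a covariate none had an unadjusted p under 0.05. Without replicate 2 of day 7, 1 was higher and 0 lower at that threshold, and the same held without replicate 2 of day 1. Whether the 2 sides reflect kinds of macrophage was not tested.

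Other leukocyte lists gave few genes. Of 8 monocyte genes 6 were higher, median 0.39, and the 2 at unadjusted p under 0.05 were lower, among them Plac8, with 3582, 1965 and 2516 on day 7 and 3673, 5245 and 3846 on day 1 (difference -0.69, SE 0.29). Of 14 neutrophil genes 11 were higher, median 0.20, none at unadjusted p under 0.05. S100a8, a calcium-binding neutrophil protein, had 558, 504 and 518 on day 7 and 235, 627 and 301 on day 1 (difference 0.57, SE 0.36, limma adjusted p = 0.333). The day 7 values were close together and lay inside the day 1 range. Dendritic cell genes had a median of 0.22 over 12. Zbtb46, the transcription factor of conventional dendritic cells, had 198, 189 and 157 on day 7 and 119.5, 99.5 and 123 on day 1 (difference 0.66, SE 0.22) and held in all 7 fits. With the length index as a covariate no dendritic cell gene had an unadjusted p under 0.05. Of 20 chemokines and cytokines 11 were higher, median 0.02, with 2 higher and 1 lower at unadjusted p under 0.05. Over all genes 8.46% were higher and 9.91% lower at that threshold. With the length index as a covariate, or without replicate 2 of day 1, none of the 20 had such a p. Without replicate 2 of day 7, 1 was higher and 0 lower. Cxcl1, a neutrophil attractant, had 74.6, 69.1 and 229 on day 7 and 43.2, 23.7 and 46.1 on day 1 (difference 1.52, SE 0.73, limma adjusted p = 0.27). Il6, an acute-phase cytokine, had 64.8, 60.7 and 34.8 on day 7 and 33.5, 11.7 and 25.6 on day 1 (difference 1.22, SE 0.56, limma adjusted p = 0.266). Cxcl2, closely related to Cxcl1, had 306, 301 and 342 on day 7 and 195, 159 and 212 on day 1 (difference 0.75, SE 0.38, limma adjusted p = 0.278). All 3 separated the groups, with 1 high day 7 tumour for Cxcl1. Tgfb1, an immunosuppressive and profibrotic cytokine, was the lower one, with 4610.4, 3238 and 3766 on day 7 and 5091, 7982 and 4487 on day 1 (difference -0.57, SE 0.25). Complement and coagulation genes had a median of 0.02 over 14, and mast cell and eosinophil genes 0.18 over 10 tested.

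The Pan02 label was read against epithelial and acinar genes. Krt8, an epithelial keratin, had 26343, 12127 and 16148 on day 7 and 21064, 35553 and 19282 on day 1 (difference -0.49, SE 0.30, limma adjusted p = 0.324). Krt18, its partner, had 14539, 6259 and 9228 on day 7 and 13005, 20594 and 12231 on day 1 (difference -0.65, SE 0.33, limma adjusted p = 0.277). Krt19, a ductal keratin, had 1616, 462 and 478 on day 7 and 1128, 2381 and 1091 on day 1 (difference -1.01, SE 0.54, limma adjusted p = 0.285). These keratins were present in all 6 tumours, with overlapping groups. Epcam, an epithelial adhesion molecule, was low in every tumour, with 97.1, 11 and 125 on day 7 and 17.9, 21.4 and 64.4 on day 1 (difference 0.81, SE 1.45, limma adjusted p = 0.75). Of 10 pancreatic acinar genes 1 reached the level needed for testing. The epithelial list was lower in 10 of 12 tested, median -0.29, none at unadjusted p under 0.05.

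Proliferation genes lay on both sides. Of 21 cell cycle genes 11 were higher and 10 lower, median 0.00, with 1 at unadjusted p under 0.05 each way. With the length index as a covariate 2 were higher and 19 lower, median -0.08, and none had an unadjusted p under 0.05. Mki67, the proliferation antigen Ki-67, had 3642, 6265 and 3734 on day 7 and 2697, 2336 and 2875 on day 1 (difference 0.74, SE 0.33). E2f1, a transcription factor of S phase entry, had 829.9, 699 and 793 on day 7 and 835, 1532 and 811 on day 1 (difference -0.39, SE 0.19, limma adjusted p = 0.271). Mki67 separated the groups with 1 high day 7 tumour, replicate 2, and E2f1 had 1 high day 1 tumour, replicate 2. DNA repair genes were higher in 9 of 12, median 0.31, with 2 at unadjusted p under 0.05, both higher. Of these genes 4 were higher and 8 lower with the length index as a covariate, median -0.05, and without replicate 2 of day 7 the median was 0.17, with no member at unadjusted p under 0.05 in either case. Atr, the replication stress kinase, had 461, 812 and 459.6 on day 7 and 338, 385 and 367 on day 1 (difference 0.62, SE 0.25). Of 15 p53 targets and apoptosis genes 8 were higher and 7 lower, median 0.07, with 3 lower and 1 higher at unadjusted p under 0.05. With the length index as a covariate 3 were higher and 12 lower, median -0.095. No member had an unadjusted p under 0.05 with that covariate, without replicate 2 of day 7 or without replicate 2 of day 1. Bax, a pro-apoptotic protein, had 1402, 1002 and 1454 on day 7 and 1681, 3227 and 1951 on day 1 (difference -0.79, SE 0.28). Cdkn1a, the cyclin-dependent kinase inhibitor p21, had 1234, 921 and 1444 on day 7 and 1716, 2498 and 1883 on day 1 (difference -0.77, SE 0.34). Both separated the groups, and replicate 2 of day 1 was again the highest of the 6.

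The hypoxia and glycolysis list held genes on both sides, 11 of 18 higher, median 0.06. Vegfa, the vascular growth factor, had 2824, 3343 and 2690.2 on day 7 and 2221, 982 and 2276 on day 1 (difference 0.78, SE 0.35), with no overlap. Eno1, a glycolytic enolase, had 31685, 19857 and 24169 on day 7 and 29116, 56788 and 36161 on day 1 (difference -0.66, SE 0.29). Aldoa, the muscle-type aldolase of glycolysis, had 24273, 15137 and 18856 on day 7 and 22799.5, 53439 and 27914 on day 1 (difference -0.77, SE 0.36, limma adjusted p = 0.268). The groups overlapped in both enzymes, and the Aldoa difference was 0.02 with the length index as a covariate. With that covariate no gene of this list, Vegfa included, had an unadjusted p under 0.05. The same held without replicate 2 of day 7 and without replicate 2 of day 1. Of 12 oxidative stress and metal response genes 8 were lower, median -0.05. Gpx1, a glutathione peroxidase, had 9182, 5478 and 7593 on day 7 and 9033, 17553 and 10424 on day 1 (difference -0.70, SE 0.25). Mt1, a metallothionein, had 6023, 3509 and 3081 on day 7 and 4810.4, 12290.1 and 6642 on day 1 (difference -0.86, SE 0.40, limma adjusted p = 0.268). Of 12 unfolded protein response genes 10 were lower, median -0.18. Calr, the chaperone calreticulin, had 19758, 13032 and 15613 on day 7 and 20435, 28101 and 19369.5 on day 1 (difference -0.49, SE 0.18). The Gpx1, Mt1 and Calr groups overlapped. Heat shock genes had a median of -0.11 over 8 and cholesterol genes 0.17 over 15.

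Stromal genes varied widely among tumours of one day. Of 18 collagen chains 13 were lower on day 7, median -0.30, and the 1 at unadjusted p under 0.05 was higher. That gene, Col6a3, a chain of microfibrillar collagen, had 15829, 21229.8 and 19327 on day 7 and 17805, 9039.6 and 12178 on day 1 (difference 0.58, SE 0.25), with overlap. Col1a1, the main fibrillar collagen chain, had 49615, 97729.7 and 162716 on day 7 and 196295, 84477 and 168655 on day 1 (difference -0.61, SE 0.70, limma adjusted p = 0.603). Postn, the matricellular protein periostin, had 4398, 21935 and 30861 on day 7 and 35426, 4455 and 25810.4 on day 1 (difference -0.15, SE 1.17, limma adjusted p = 0.947). In both genes the lowest value of a group was that of replicate 1 on day 7 and of replicate 2 on day 1, and the groups overlapped. Collagen processing genes were lower in 12 of 17, median -0.47, with 2 lower at unadjusted p under 0.05. No collagen chain or collagen processing gene had such a p with the length index as a covariate. Nor did any without replicate 2 of day 7 or without replicate 2 of day 1. Plod3, a lysyl hydroxylase, had 3738, 2497 and 2931 on day 7 and 3908, 6903 and 4034 on day 1 (difference -0.66, SE 0.25). P4ha2, a prolyl hydroxylase subunit, had 1392, 1076 and 1399.6 on day 7 and 1922, 2496 and 2572 on day 1 (difference -0.85, SE 0.39, limma adjusted p = 0.268). Both kept the groups apart, as did Timp1, a metalloproteinase inhibitor, with 3078, 2424 and 3476 on day 7 and 3822, 7851 and 3913 on day 1 (difference -0.73, SE 0.35, limma adjusted p = 0.27).

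Fibroblast and pericyte genes were lower in 11 of 14, median -0.30, and 1 member held in all 7 fits on the higher side. Pdgfra, the platelet-derived growth factor receptor of fibroblasts, had 2857, 4807 and 2302 on day 7 and 1809.9, 709.6 and 1306 on day 1 (difference 1.41, SE 0.46, 95% interval 0.48 to 2.34). Every day 7 tumour exceeded every day 1 tumour. The highest value was that of replicate 2 of day 7 and the lowest that of replicate 2 of day 1. With the length index as a covariate 7 members of the list were higher and 7 lower, median -0.03. Under that covariate no member, Pdgfra included, had an unadjusted p under 0.05. Ly6c1, a marker of a fibroblast subset that endothelium and leukocytes also express, had 3262, 676 and 1057 on day 7 and 2152, 5248 and 2157 on day 1 (difference -1.13, SE 0.55, limma adjusted p = 0.271), with overlap. Endothelial genes were lower in 9 of 14, median -0.25. Flt1, a receptor for vascular growth factors, had 926, 1156 and 813 on day 7 and 749, 588 and 707 on day 1 (difference 0.49, SE 0.22, limma adjusted p = 0.264) and separated the groups. Fn1, the matrix glycoprotein fibronectin, had 244497, 269488 and 182114 on day 7 and 186092, 140033 and 140461 on day 1 (difference 0.57, SE 0.28, limma adjusted p = 0.273). Matrix glycoproteins had a median of -0.15 over 17, metalloproteinases and inhibitors -0.06 over 15, and epithelial-mesenchymal genes -0.26 over 12.

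Genes of the circadian clock and of rapid responses depend on the time and manner of harvest. Both groups carry the label 0 h, and the clock time of harvest is not given in the sources used here. Of 16 clock genes 10 were higher on day 7, median 0.19, and the 5 at unadjusted p under 0.05 were all higher. Per2, a repressor of the clock, had 585, 789 and 497 on day 7 and 329.5, 174 and 241 on day 1 (difference 1.35, SE 0.42, 95% interval 0.49 to 2.21), separated the groups and held in all 7 fits. Per3, its paralogue, had 249.8, 484 and 315 on day 7 and 199, 84.3 and 252 on day 1 (difference 1.05, SE 0.44). Clock, the activator of the loop, had 814, 1974 and 862 on day 7 and 701, 252 and 707 on day 1 (difference 1.16, SE 0.48). Cry1, a repressor, had 227, 210 and 241 on day 7 and 192, 65.3 and 160.3 on day 1 (difference 0.83, SE 0.36). In these genes replicate 2 of day 1 was the lowest tumour. The fifth, Nr1d2, a nuclear receptor of the clock, had 693, 1388 and 731 on day 7 and 574, 218 and 704 on day 1 (difference 1.00, SE 0.46, limma adjusted p = 0.264). Without replicate 2 of day 7 there were 2 clock genes at unadjusted p under 0.05, without replicate 2 of day 1 there was 1, and with the length index as a covariate there was none.

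Of 12 immediate early genes 6 were higher, median 0.05, and 1 on each side had an unadjusted p under 0.05. Egr1, a zinc finger factor induced within minutes by growth factors and stress, had 5190, 3112 and 2619.6 on day 7 and 2139, 1416 and 2066 on day 1 (difference 0.92, SE 0.30). All day 7 values exceeded the day 1 values, with replicate 1 the highest. Jund, an AP-1 subunit, had 4664, 2945 and 4114 on day 7 and 4892, 8908 and 5463 on day 1 (difference -0.69, SE 0.30). Glucocorticoid-induced genes had a median of 0.15 over 12, with Cdkn1a the 1 at unadjusted p under 0.05. Replication-dependent histones had a median of -0.33 over 9 tested, led by Hist2h2aa1.

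**Figure D4:**
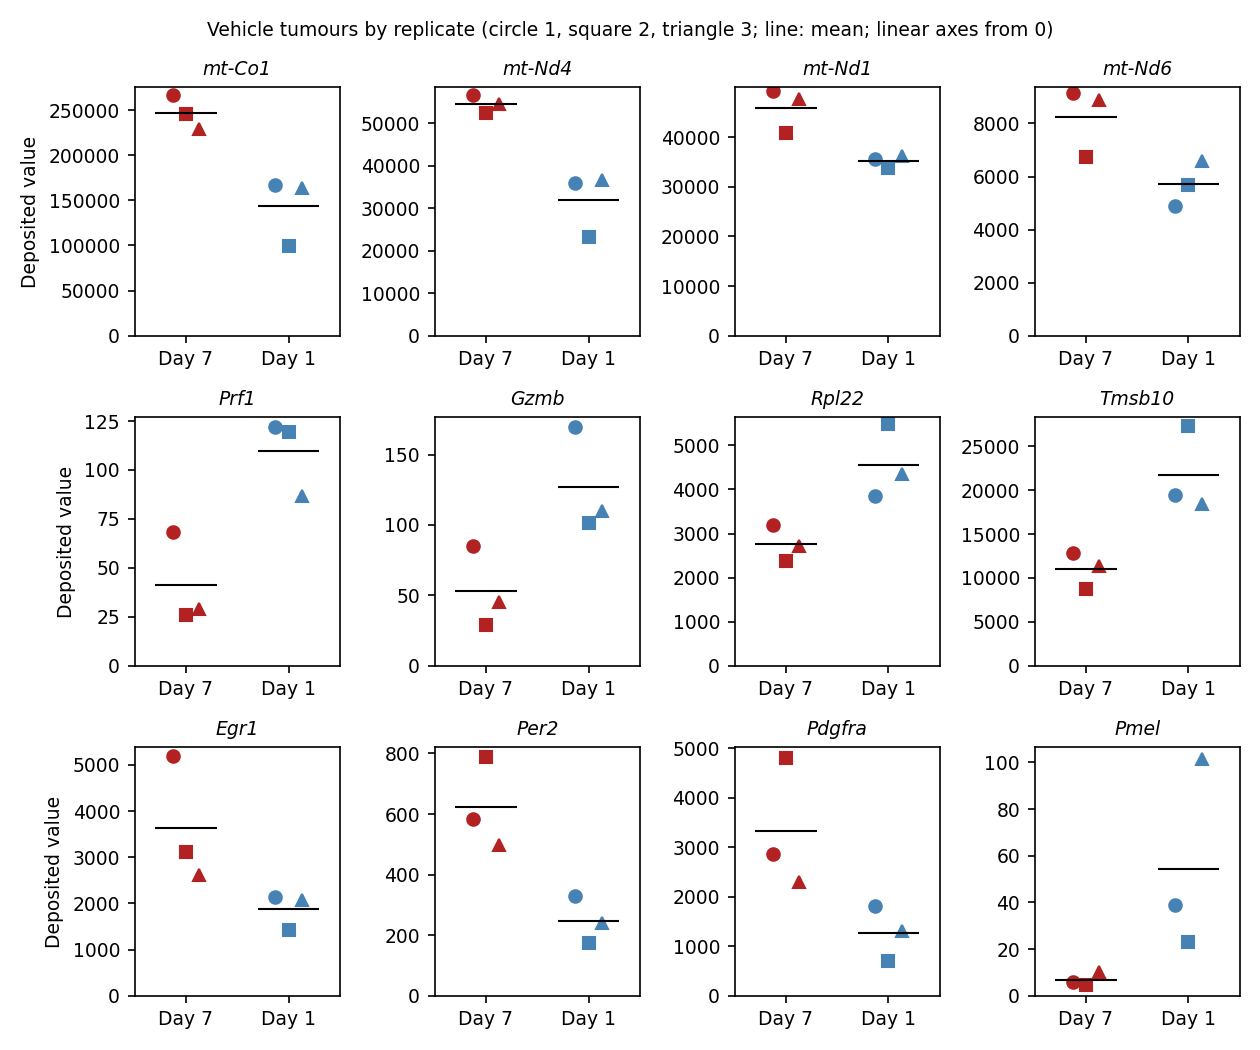
Deposited values of 12 genes in the 3 day 7 and 3 day 1 vehicle tumours, on linear axes from 0, with circle, square and triangle for replicates 1, 2 and 3 and the mean as a line. The panels are a selection from the genes named in the text, most of them named for a small p. The groups do not overlap in any panel, where 10.3% of all genes did so on the higher side and 10.3% on the lower. The mt-Co1 values are at least 229340 on day 7 and at most 166566 on day 1.

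Among markers of tissue around the tumour, those of muscle, sebaceous gland and keratinocytes followed single tumours. Of 16 skeletal muscle genes 16 were lower on day 7, with a median of -2.87, and none had an unadjusted p under 0.05. Without replicate 1 of day 7, 11 were lower and 5 higher, median -0.68. Acta1, skeletal muscle actin, had 7.29, 3436 and 6475 on day 7 and 4294, 23899 and 5642 on day 1 (difference -3.87, SE 2.63, limma adjusted p = 0.368). A single day 7 tumour, replicate 1, was nearly free of it, while the other 5 were not. Hair follicle and melanocyte genes were lower in 12 of 13 tested, median -2.96. Their mean log2 level was 4.69, 1.60 and 2.14 in day 7 tumours, against 7.54, 1.48 and 8.69 in day 1 tumours. Pmel, a melanosome protein, had 5.66, 4.77 and 9.96 on day 7 and 39, 22.8 and 102 on day 1 (difference -2.62, SE 0.89, 95% interval -4.43 to -0.80) and held in all 7 fits. Its levels were low and its groups apart. Sebaceous gland genes were higher in 9 of 9, median 1.03, none at unadjusted p under 0.05. Without replicate 3 of day 7 they were higher in 4 and lower in 5, median -0.26. Keratinocyte genes had a median of -0.04 over 14. Krt14, the keratin of basal skin cells, had 68.8, 11 and 7716 on day 7 and 72.7, 19.6 and 329.6 on day 1 (difference 1.23, SE 2.91, limma adjusted p = 0.814), so 1 day 7 tumour carried nearly all of it. Without that tumour the Krt14 difference was -1.46.

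Most fat and blood genes given here also varied among tumours of one day. Adipocyte genes had a median of 0.16 over 12. Adipoq, the fat hormone adiponectin, had 645, 86.4 and 173 on day 7 and 135, 248 and 189 on day 1 (difference 0.20, SE 1.38, limma adjusted p = 0.939). Plin4, a lipid droplet protein, had 1333, 1123 and 885 on day 7 and 569, 638 and 569 on day 1 (difference 0.89, SE 0.40, limma adjusted p = 0.264), with no overlap. Red blood cell and platelet genes were lower in 8 of 9 tested, median -1.30. Hbb-bs, a beta globin with a near-identical neighbour, had 385, 391 and 759 on day 7 and 526, 2861 and 1152 on day 1 (difference -1.31, SE 0.94, limma adjusted p = 0.391), the highest value again in replicate 2 of day 1. Peripheral nerve genes had a median of -0.34 over 9 tested. With the muscle, keratinocyte and adipocyte levels as covariates, 887 genes higher and 1018 lower had an unadjusted p under 0.05 and none passed an adjusted p of 0.05.

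**Figure D5:**
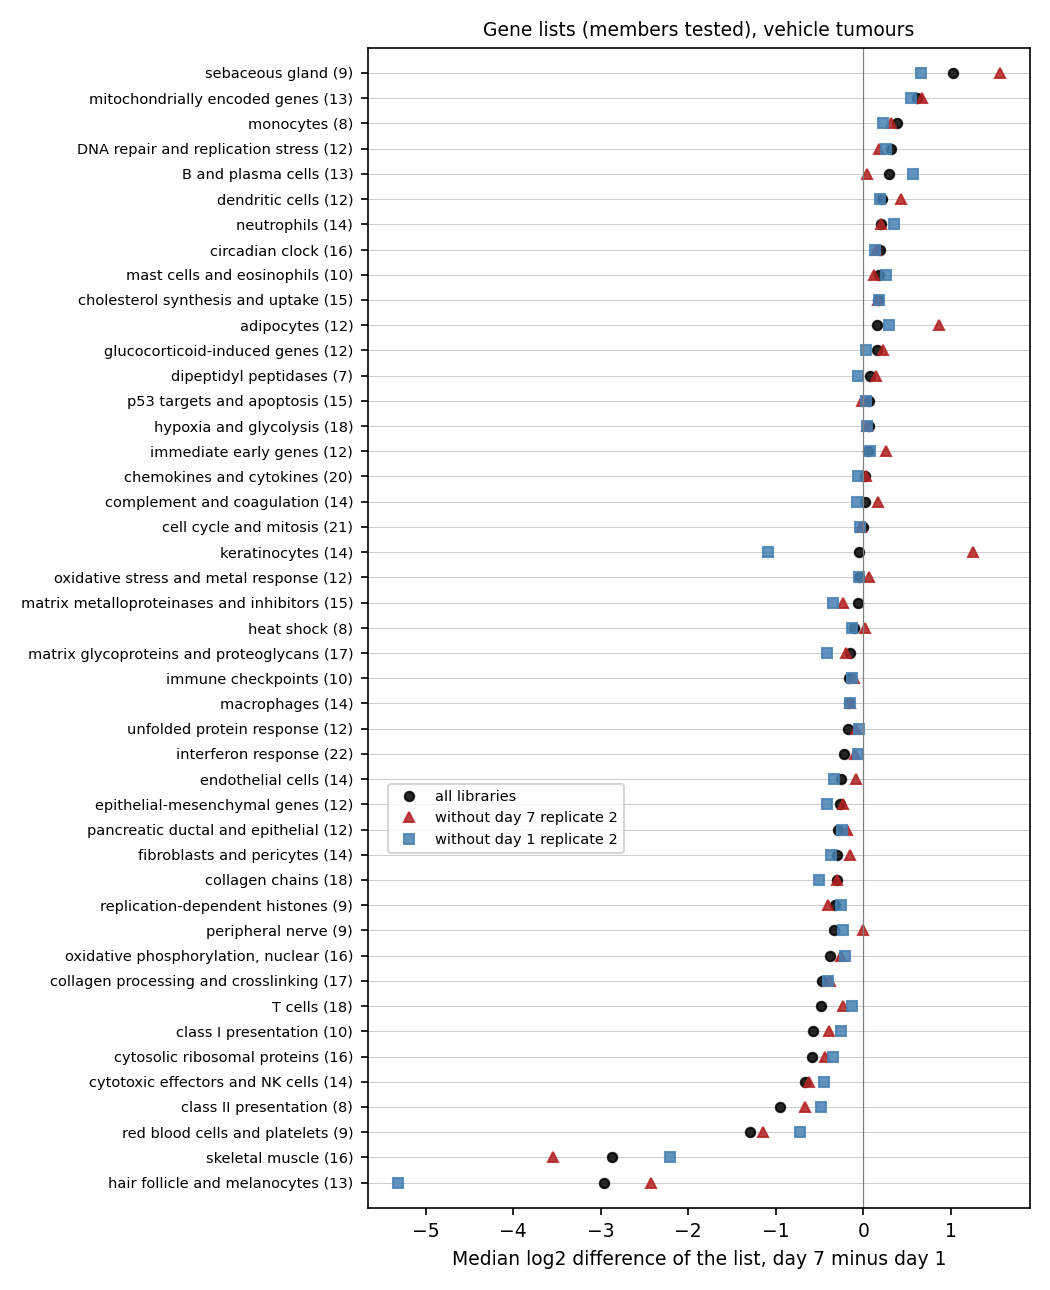
Median log2 difference between day 7 and day 1 vehicle tumours for 45 gene lists, with all libraries (circles), without replicate 2 of day 7 (triangles) and without replicate 2 of day 1 (squares), and the number of members tested in brackets. The mitochondrial median stays between 0.54 and 0.67, whereas the keratinocyte median is 1.25 without the day 7 library and -1.09 without the day 1 library.

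BXCL701, also called talabostat, inhibits dipeptidyl peptidases and fibroblast activation protein, and the levels of its targets in undosed tumours are the baseline for it. Dpp4, a cell-surface peptidase, had 118, 104 and 159 on day 7 and 109, 85 and 82.7 on day 1 (difference 0.45, SE 0.47, limma adjusted p = 0.56). Fap, the fibroblast activation protein, had 79.9, 176 and 271 on day 7 and 210, 184 and 142 on day 1 (difference -0.17, SE 0.74, limma adjusted p = 0.900). Dpp8, a cytosolic peptidase, had 1171, 2206 and 1339.8 on day 7 and 1376, 610.3 and 1309.7 on day 1 (difference 0.55, SE 0.31, limma adjusted p = 0.296). Dpp9, its cytosolic paralogue, had 2218, 1814 and 1969.9 on day 7 and 2235, 1563 and 1935 on day 1 (difference 0.08, SE 0.15, limma adjusted p = 0.776). None of the 4 separated the groups, and the 95% interval of the Dpp9 difference was -0.23 to 0.39. Over 7 dipeptidyl peptidase genes the median was 0.08.

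The same interval was available in mice dosed with BXCL701 at 20 ug per mouse, in 18 tumours of days 7 and 1 taken at 1, 8 and 16 h, each hour weighted equally. The day changes of the 2 arms share no tumour, but the hours after dosing differ between the arms. In the BXCL701 arm 17 genes rose on day 7 (0.102%) and 3 fell (0.0181%) at a limma adjusted p under 0.05, the 3 being Tln2, Parp1 and Mex3a, named after their values were seen. These counts were 358 and 236 with the length index as a covariate, and 94 and 36 without vehicle replicate 2 of day 1, a library that enters them only through the shared estimate of the spread. The test of the difference between the 2 day changes called no gene (0.0%, limma, smallest adjusted p = 0.175), with 3872 genes (23.3%) at unadjusted p under 0.05, 1666 with a positive difference and 2206 with a negative one. These counts were 335 and 407 without replicate 2 of day 1, 474 and 903 without replicate 2 of day 7, 316 and 424 with the length index as a covariate, and 165 and 94 without the 4 libraries of extreme length index. Across the 16613 genes, which are not independent replicates, the 2 day changes had a Pearson correlation of 0.175 and the same sign in 41.9%.

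Several lists had medians of opposite sign in the 2 arms. Cytotoxic genes had a median of -0.67 in vehicle and 0.37 in BXCL701 tumours, class II genes -0.95 and 0.68, interferon response genes -0.22 and 0.78, and red blood cell genes -1.30 and 1.42. Ribosomal protein genes had -0.59 in vehicle and 0.12 in BXCL701 tumours, while mitochondrial genes had 0.61 and 0.16, both positive. The mean length index went from -0.12 on day 1 to 0.15 on day 7 in vehicle tumours. In the BXCL701 tumours it went the other way, from 0.005 to -0.068. With the index as a covariate the vehicle medians were -0.47 for cytotoxic, -0.21 for class II and -0.23 for interferon response genes. The part of the length difference in these opposite signs was not tested. For Gzmm the day change was -1.40 in vehicle and 1.26 in BXCL701 tumours, where it passed (limma adjusted p = 0.0458), and the difference between the arms was -2.66 (limma adjusted p = 0.175). For Prf1 it was -1.52 in vehicle and 1.05 in BXCL701 tumours, and the difference between the arms was -2.57 (limma adjusted p = 0.175). Neither difference passed. For mt-Co1 the day change was 0.82 in vehicle and 0.21 in BXCL701 tumours. The mitochondrial share was 1.17% to 3.17% in the 9 BXCL701 tumours of day 7 (median 2.45%) and 1.62% to 2.25% in the 9 of day 1 (median 2.02%), so in that arm the days overlapped.

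Vehicle tumours of day 14, after a further week of daily doses, were set beside these values. The day 14 and the day 7 comparison share the 3 day 1 tumours, so their likeness is no separate evidence. Between day 14 and day 1, 9 genes rose (0.0542%) and 1 fell (0.00602%) at a limma adjusted p under 0.05. With replicate 1 or replicate 2 of day 1 left out no gene passed (limma, smallest adjusted p = 0.273 and 0.0654, with 1072 higher and 948 lower, and 645 higher and 830 lower, at unadjusted p under 0.05). With the length index as a covariate the counts were 175 and 126. The 9 included mt-Nd1, at 0.61 for day 14 minus day 1 (limma adjusted p = 0.0336) and 0.38 for day 7 minus day 1, and mt-Nd6, at 1.03 (limma adjusted p = 0.0304) and 0.53. The gene that fell, Gm15931, a predicted model, had -2.92 for day 14 and -0.77 for day 7. The cytotoxic median was -1.33 for day 14 minus day 1 and -0.67 for day 7 minus day 1, with Gzmf at -3.82 and -3.71 and Gzmg at -4.41 and -3.30. The class II median was -1.80 for day 14 and -0.95 for day 7, while that of ribosomal protein genes was 0.13 and -0.59. The mitochondrial share was 1.68% to 2.58% on day 14 (median 2.48%). Day 14 minus day 7 called no gene in either direction (limma, smallest adjusted p = 0.0968, with 1513 genes higher and 1118 lower at unadjusted p under 0.05). With the length index as a covariate it called 14 higher and 4 lower, and without replicate 3 of day 7 it called 1 higher.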

How the data were processed

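Bulk tumour RNA was sequenced, 42 libraries in 14 groups of 3 mice. The submitters' processing notes list Trimmomatic 0.36, Bowtie 0.12.9 and GRCm38; which tool quantified the genes, with which annotation, strand setting and scaling, is not given in the sources used here. Values deposited in the gene table are a signal on a scale of reads but are not whole, so they were taken as scaled read estimates and no count test was run. A deposited table of log2 FPKM served as an alternative. A gene was tested if 3 or more libraries had a value of 10 or higher, which left 16613 of 47729. One limma model (limma 3.58.1, R 4.3.3, data.table version 1.17.8, intensity trend, robust) with a coefficient per group was fitted to log2(value + 1) of all 42 libraries, with no added scaling and 28 residual degrees of freedom. P-values were adjusted by Benjamini-Hochberg across all tested genes, with a threshold of 0.05. The procedure was tested on simulated data with independent noise in each gene. Those data held no length effect shared by the genes of a library, so its behaviour under such an effect was not tested. Differences of low genes are understated on this scale. The median standard error of a day 7 minus day 1 difference was 0.31.

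GENCODE M21 (GRCm38) gave positions and exon lengths, the latter for 99.6% of tested genes, and RefSeq the promoters. The length index rests on 11487 genes whose mean value was 100 or more. The comparison, the 46 gene lists and the genes named were chosen with earlier results of these data known. Named genes are the 5 smallest p-values in each direction outside predicted models, up to 4 members of each list by smallest p, and 16 fixed genes. mt-Cytb, mt-Nd3, Rplp0, Gzmc to Gzmg, Ifng, Mrc1, Epcam and Nr1d2 were named after their values were seen. Each library came from a different animal, and replicate numbers only count the records of a group. The 6 libraries were compared in pairs and none were near-identical. Alternatives were median-of-ratios scaling, testing without a filter, fitting only the 6 libraries, the log2 FPKM table, a pseudocount of 5, the length index or neighbouring tissue levels as covariates and leaving out each vehicle library. Leaving out 4 libraries of extreme length index, and counting genes that held in 7 fits, were chosen after seeing the data.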

Additional observations from a re-analysis of the deposited data

How the results depend on the processing

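No gene passed an adjusted p of 0.05 in either direction between day 7 and day 1 under any alternative except testing without a filter on low values, nor with any 1 of the 6 vehicle libraries left out (0 to 0). Without the filter, over 29467 genes, 6 genes were higher and 1 lower on day 7 (limma). They were Gm26680, Ighv1-66, Cbx3-ps7, 9430025C20Rik, Gm6116 and Gm16416 on the higher side and Fgf3 on the lower, named after their values were seen. The highest value in any of the 6 tumours was 0.859 for Gm26680, 31.5 for Ighv1-66, 11.9 for 9430025C20Rik and 1.21 for Fgf3. The difference between the vehicle and BXCL701 day changes called no gene with the filter and 2 without it, Gm26680 and Fgf3. With 1 vehicle library left out it called 0 to 1, the 1 being Hist2h2aa1 without replicate 3 of day 7 (limma adjusted p = 0.0111). Genes at unadjusted p under 0.05 numbered 633 higher and 489 lower with the 6 libraries alone, and 241 and 137 without the 4 libraries of extreme length index. Of the 46 list medians 11 changed sign with the length index as a covariate, among them those of endothelial cells (0.05), monocytes (-0.07) and peripheral nerve (0.20), and 11 did so without the 4 libraries of extreme length index, among them that of T cells (0.14). With 1 vehicle library left out 4 to 9 changed sign, among them that of epithelial-mesenchymal genes without replicate 1 of day 7 (0.14). No paired analysis was possible because the replicate numbers only count the records of a group and each library came from a different animal.

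Of 91 named genes under 14 alternatives, 1252 of 1274 differences kept their direction and 22 reversed, in 9 genes. None of these genes passed the adjusted threshold with all libraries or under an alternative (limma, smallest adjusted p under the alternatives 0.102). Many were named for a small p, which makes a reversal less likely, so the count of kept directions is no measure of robustness. The cause of the reversals was not tested. Adgre1 gave 0.088 in the log2 FPKM table. With the length index as a covariate Aldoa gave 0.018, Krt8 0.044, Fap 0.040, Dpp8 -0.18 and Dpp9 -0.0085. Without the 4 libraries of extreme length index Krt8 gave 0.033 and Dpp8 -0.10. With neighbouring tissue levels as covariates Postn gave 0.68, Adipoq -0.087 and Fap 0.53. With 1 vehicle library left out the ranges spanned both signs, -0.13 to 0.16 for Adgre1, -1.07 to 0.70 for Postn, -1.46 to 3.21 for Krt14, -0.59 to 0.85 for Adipoq, -0.57 to 0.31 for Fap and -0.061 to 0.20 for Dpp9. With 3 tumours per day an exact permutation test could not go below 0.1. A missed threshold does not show that day 7 and day 1 tumours were alike.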
